A study of Mus musculus with 30 samples.

Results

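Homeostatic microglia signature genes are genes that mark resting microglia, the resident macrophages of the brain. The 9 members studied here (P2ry12, P2ry13, Gpr34, Cx3cr1, Siglech, Fcrls, Tmem119, Olfml3 and Tgfbr1) were matched by symbol among 48820 genes listed. All 9 passed the filter on low counts in every fit. They were followed over saline and 3 times after lipopolysaccharide (LPS), a bacterial outer membrane component that sets off systemic inflammation, in whole hippocampus and whole frontal cortex.

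All mice were adult male wild-type C57BL/6J animals of 8 to 12 weeks, housed singly. Every mouse, those given saline included, had received corticosterone (CORT) at 200 mg/L in drinking water containing 0.6% ethanol for 7 days. A dose of diisopropyl fluorophosphate (DFP), an inhibitor of acetylcholinesterase, followed on day 8 at 4 mg/kg into the peritoneum, and CORT was then given in alternate weeks until 5 weeks had passed. Saline mice were collected 6 h after injection (CORT+DFP+Saline, 3 libraries per tissue), and LPS mice 6, 12 or 24 h after 0.5 mg/kg under the skin (CORT+DFP+LPS, 4 libraries per tissue and time). Saline was collected at 6 h alone, so in the later comparisons time since injection differs along with LPS. No mice without CORT and DFP were analysed here, and 1 saline hippocampus library was excluded by the submitters for its quality.

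Microglia depend on transforming growth factor beta, read by the receptor chains TGFBR1 and TGFBR2 and passed on by SMAD proteins, to take on their mature brain-specific state, and on the transcription factor PU.1 (the product of Spi1) for their identity as macrophages. Resting microglia sense ADP through P2Y12 and neuronal fractalkine (CX3CL1) through CX3CR1. In inflammation many homeostatic genes are known to be turned down for a time while cytokine genes are turned on.

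Promoter windows are shown because the members moved together in time, as the values below describe. RefSeq windows on GRCm38.p6, reaching from 250 bases before to 50 after a start site, were found for 7 of the 9 members (8 windows, since Tgfbr1 has 2); Tmem119 and Gpr34 were not matched. Letters searched on both strands were GAGGAA, a core read by PU.1 and other ETS factors, CAGAC, the SMAD box, and GAAANNGAA, a core of interferon-stimulated response elements. GAGGAA stood in the windows of 4 members (P2ry13, Fcrls, Siglech and the second window of Tgfbr1), and in 28.3% of 32851 windows of all genes. CAGAC stood in those of 5 members and in 49.6% of all windows, and GAAANNGAA in none of the members' and in 8.56% of all. A match describes letters alone. The windows of P2ry13, Fcrls and Siglech, which each hold 1 copy, and of P2ry12, which holds none, are printed 5′ to 3′ on the strand of the gene. Capitals mark GAGGAA or its reverse complement, and positions count the leftmost base of the match from the start site. They are chr3:59210833-59211132 (minus strand, match at -48), chr3:87263475-87263774 (minus strand, match at -144), chr7:55767934-55768233 (plus strand, match at -4) and chr3:59262936-59263235 (minus strand).
P2ry13: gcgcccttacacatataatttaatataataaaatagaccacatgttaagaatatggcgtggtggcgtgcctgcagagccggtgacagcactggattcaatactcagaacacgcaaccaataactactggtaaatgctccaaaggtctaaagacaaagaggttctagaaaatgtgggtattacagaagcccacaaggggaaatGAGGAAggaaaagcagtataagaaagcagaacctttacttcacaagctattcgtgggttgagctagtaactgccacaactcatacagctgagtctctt
Fcrls: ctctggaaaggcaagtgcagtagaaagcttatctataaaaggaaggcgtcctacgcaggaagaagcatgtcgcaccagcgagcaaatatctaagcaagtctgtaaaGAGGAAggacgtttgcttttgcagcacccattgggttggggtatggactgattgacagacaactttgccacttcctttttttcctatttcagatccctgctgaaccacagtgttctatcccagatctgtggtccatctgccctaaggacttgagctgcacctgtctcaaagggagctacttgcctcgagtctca
Siglech: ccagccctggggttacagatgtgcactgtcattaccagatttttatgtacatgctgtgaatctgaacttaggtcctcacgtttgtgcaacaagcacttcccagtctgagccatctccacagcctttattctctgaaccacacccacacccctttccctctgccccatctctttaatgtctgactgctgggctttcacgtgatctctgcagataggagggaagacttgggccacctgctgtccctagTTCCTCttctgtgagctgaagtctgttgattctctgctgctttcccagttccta
P2ry12: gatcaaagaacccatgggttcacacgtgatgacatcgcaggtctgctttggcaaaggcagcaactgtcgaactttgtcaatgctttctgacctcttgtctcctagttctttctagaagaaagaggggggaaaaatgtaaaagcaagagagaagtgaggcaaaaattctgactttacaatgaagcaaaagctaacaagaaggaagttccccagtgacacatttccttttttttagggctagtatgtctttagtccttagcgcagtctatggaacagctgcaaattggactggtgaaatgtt

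Libraries held 16826882 to 33034295 counts. Member counts ran from 19 (Gpr34) to 1347 (Cx3cr1). Gpr34 also had the largest standard error (SE) against saline, 0.42 in hippocampus and 0.74 in cortex at 6 h. Its saline hippocampi held 63, 71 and 190 counts, so mice differed as well. P2ry13, at 97 to 146 counts in saline hippocampi, had an SE of 0.18 at 6 h. What part low counts had in the spread of Gpr34 was not tested. Of 6 hippocampal marker genes all 6, and of 6 cortical marker genes none, were higher in hippocampus than in cortex after saline, and all 6 cortical markers were lower there. None of 18 genes found in microglia in general was at 0 in any library. Genes of the choroid plexus, a tissue next to the hippocampus, varied between libraries, with a summed level of 1330 CPM (counts scaled to library size, with TMM factors) in saline hippocampus A222 and 2420 CPM in LPS 12 h hippocampus A261 against 46.7 to 401 CPM in the other 13 hippocampal libraries. Med12l lies on the opposite strand over P2ry12 and P2ry13, and Cask over Gpr34. Neither was called against saline at any time in either tissue. The annotated span of Cx3cr1 also crosses several genes, of which Gorasp1, Csrnp1 and Xirp1 lie on its own strand. Changes of the genes over Cx3cr1 are not given here. Counts of these 4 members may include or have lost reads of the overlapping genes. The strand setting of the counting is not given in the sources used here, and for genes on the same strand it would not separate the reads.

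Some cortical libraries went against their labels. In the hippocampus, 125 genes were higher and 208 lower at 24 h than at 12 h, leaving out every gene of the lists used here. The mean log2 level of the former minus that of the latter was -0.71 to -0.54 in the 12 h and 0.29 to 0.38 in the 24 h hippocampal libraries, which were used to choose the genes. In cortex it was -0.48 and -0.51 in the LPS 12 h libraries A258 and A259, but 0.34 and 0.18 in the libraries labelled LPS 12 h A260 and A261. It was 0.29 and 0.23 in the LPS 24 h libraries A274 and A275, but -0.49 and -0.62 in the libraries labelled LPS 24 h A276 and A278. The hippocampi of these 4 mice lay with their own labels, but they were among the libraries used to choose the genes, which favours that placement. The cause was not tested. Cortical results at 12 and 24 h are given as labelled and without these 4 libraries, an alternative added after the data were seen, and no library was moved to another group.

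**Figure D1:**
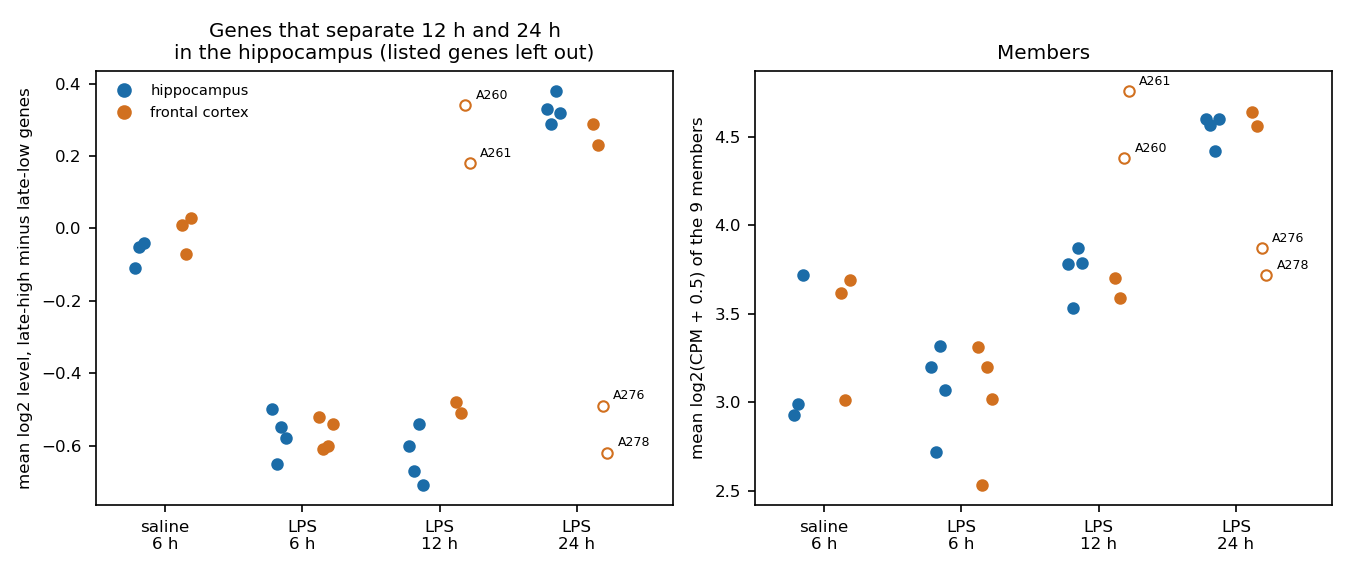
Left, mean log2 level of 125 genes higher minus that of 208 genes lower at 24 h than at 12 h in the hippocampus, for each of 30 libraries by treatment and time (blue, hippocampus; orange, cortex). Right, the mean log2(CPM + 0.5) of the 9 members. Open circles are the cortical libraries A260, A261, A276 and A278: in both panels the first pair lies nearer to the LPS 24 h hippocampi, and the second pair nearer to the LPS 12 h hippocampi.

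In the hippocampus the 9 genes were mixed in direction at 6 h after LPS, and most were higher by 24 h. At 6 h only Tgfbr1 passed the test, lower than after saline, and the log2 fold changes of the other members ran from -1.26 (Gpr34) to 0.69 (Fcrls). At 12 h 4 genes had risen, and at 24 h 8 had, with Fcrls 7.81-fold and Olfml3 3.56-fold above saline. All 9 were higher at 24 h than at 6 h after LPS, by 1.5-fold (Tgfbr1) to 5.14-fold (Gpr34). In tissue RNA a change in the number of microglia and a change in RNA per microglial cell cannot be told apart.

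Counts of members are read against the share of all 17289 genes tested that passed an adjusted p of 0.05 (edgeR, Benjamini-Hochberg). At 6 h against saline, 0 members rose and 1 fell, where 2.96% of all genes rose and 2.15% fell (median log2 fold change of the members -0.22). With an unadjusted p under 0.05 there were 5, and DESeq2 called 1 higher. At 12 h, 4 rose and 0 fell, where 6.07% rose and 6.28% fell (median 0.39, with 4 at an unadjusted p under 0.05). At 24 h, 8 rose and 0 fell, where 6.76% rose and 6.60% fell (median 1.24). The median of all genes was at most 0.01 from 0 in each of these comparisons.

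The purinergic and chemokine receptors are G protein-coupled receptors of the microglial surface. P2ry12 (ENSMUSG00000036353.13, chromosome 3, 59216272 to 59262871, minus strand) encodes the ADP receptor through which microglial processes find injury. Its level was 8.52, 8.49 and 17.5 CPM in saline hippocampi A222, A224 and A226, and 7.98, 4.38, 8.77 and 8.72 CPM at 6 h after LPS. It was 8.83, 7.50, 11.1 and 10.3 CPM at 12 h, and 28.3, 29.5, 25.4 and 29.4 CPM at 24 h. The 24 h libraries stood above all others, while the 6 h and 12 h libraries overlapped those of saline, among which A226 was high. The log2 fold change was -0.63 ± 0.28 (SE, adjusted p = 0.333) at 6 h, -0.27 ± 0.28 (adjusted p = 0.634) at 12 h and 1.30 ± 0.26 (adjusted p = 0.00523) at 24 h. With both tissues in 1 fit the last did not pass (adjusted p = 0.0633).

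P2ry13 (ENSMUSG00000036362.2, chromosome 3, 59207892 to 59210882, minus strand), its neighbour, encodes another ADP receptor. The saline libraries had 3.36, 3.34 and 5.61 CPM, those at 6 h 4.92, 3.46, 5.05 and 4.28 CPM. At 12 h they had 6.91, 5.66, 7.51 and 6.53 CPM and at 24 h 8.09, 10.5, 10.6 and 10.7 CPM. Unlike P2ry12, every 12 h library already lay above every saline library. The change was 0.12 ± 0.18 at 6 h (adjusted p = 0.860), 0.71 ± 0.17 at 12 h (adjusted p = 0.00686) and 1.29 ± 0.17 at 24 h (adjusted p = 1.04e-05). The 12 h call was lost without saline A222 (0.59, adjusted p = 0.0519) or A224 (0.58, adjusted p = 0.0618). Whether P2ry12 and P2ry13 differ in their change was not tested.

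Gpr34 (ENSMUSG00000040229.11, chromosome X, 13632089 to 13640858, plus strand) encodes a receptor for lysophosphatidylserine. Saline libraries had 2.18, 2.42 and 7.30 CPM, and the 6 h libraries 1.82, 1.0, 2.45 and 1.34 CPM. At 12 h the values were 3.38, 2.04, 2.82 and 2.33 CPM and at 24 h 10, 9.11, 6.93 and 7.78 CPM. Saline A226 alone reached the range of the 24 h group. The change was -1.26 ± 0.42 at 6 h (adjusted p = 0.144), -0.57 ± 0.40 at 12 h (adjusted p = 0.443) and 1.11 ± 0.36 at 24 h (adjusted p = 0.0672), and without saline A226 the last was 1.88 (adjusted p = 1.01e-05). Against 6 h it rose at 24 h by 2.36 ± 0.38 (adjusted p = 0.00203).

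Cx3cr1 (ENSMUSG00000052336.6, chromosome 9, 119901616 to 120069879, minus strand), the fractalkine receptor gene, had the highest CPM of the members in the hippocampus. Saline libraries had 21.1, 23.4 and 33.7 CPM and the 6 h libraries 35.8, 29.3, 33.3 and 34.1 CPM. At 12 h they had 46.6, 46.0, 49.0 and 46.8 CPM and at 24 h 51.7, 52.8, 55.6 and 54.0 CPM. The groups from 6 h to 24 h did not overlap each other. The change was 0.35 ± 0.11 at 6 h (adjusted p = 0.104), 0.86 ± 0.11 at 12 h (adjusted p = 5.21e-05) and 1.04 ± 0.11 at 24 h (adjusted p = 5.95e-06). Without saline A226 the 6 h value passed at 0.58 (adjusted p = 1.81e-05).

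**Figure D2:**
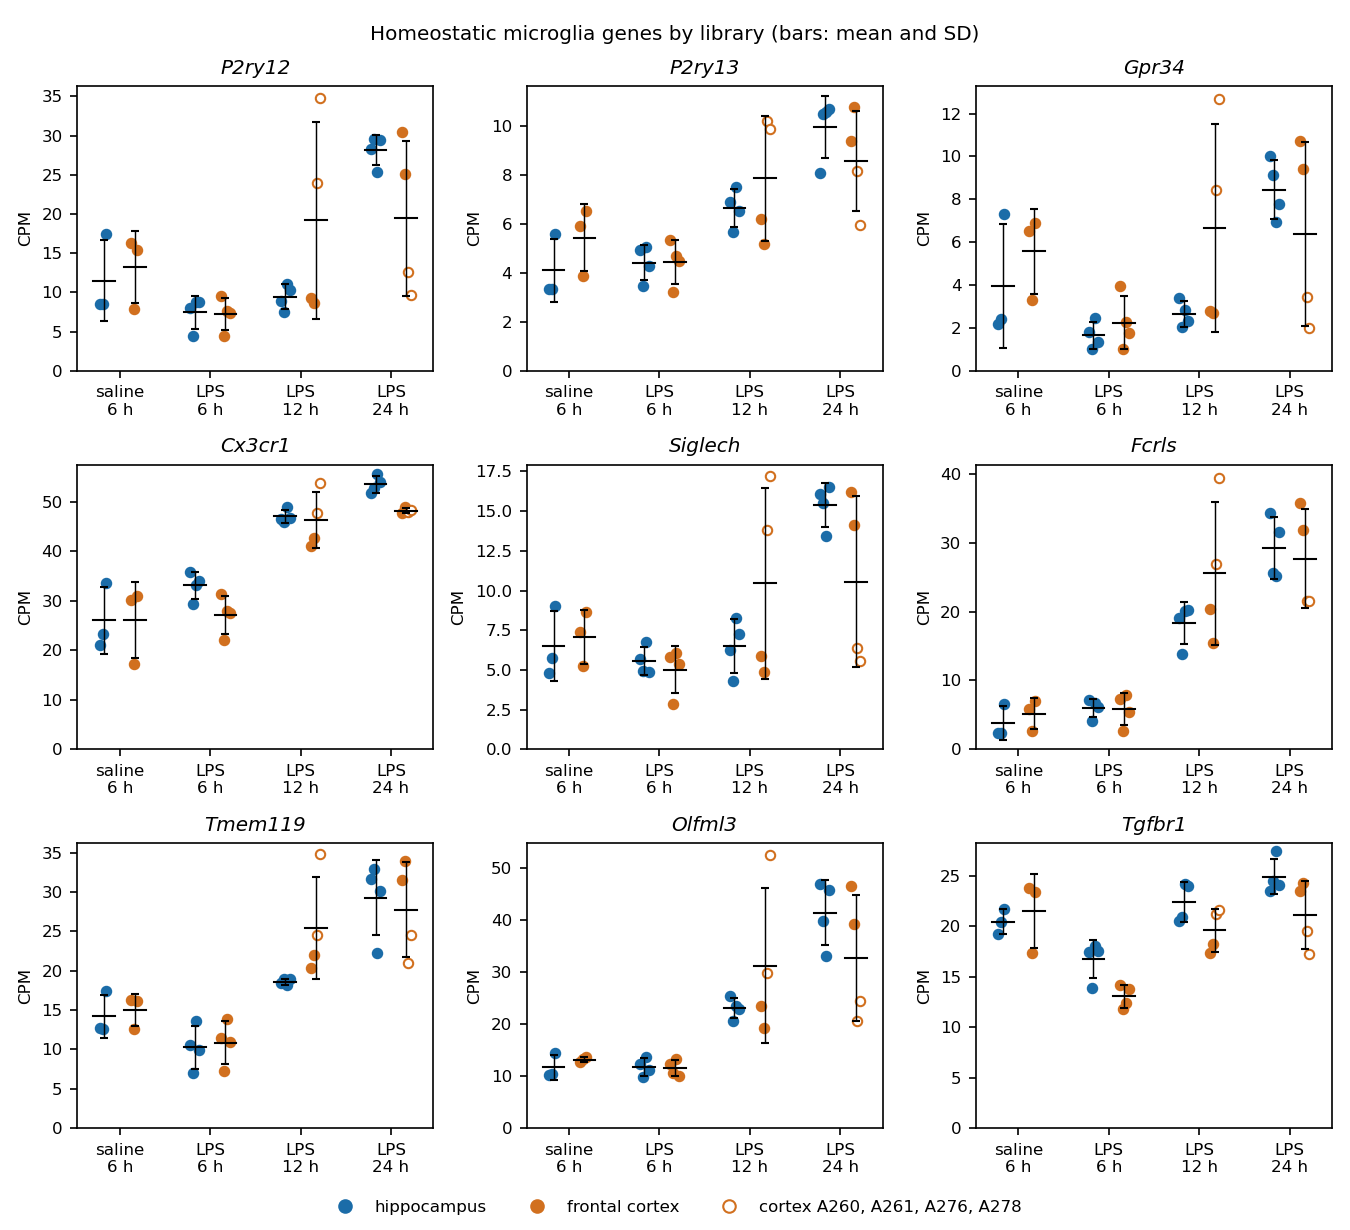
Level of each of the 9 members in CPM (vertical axes, starting at 0) for every library by treatment and time, with hippocampus in blue and frontal cortex in orange. Black lines are group means with SD (n = 3 for saline, 4 for LPS), and open circles are the 4 cortical libraries that went against their labels. In the hippocampus all 4 LPS 24 h libraries of every member lie above all 4 LPS 6 h libraries.

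Among the surface proteins, Fcrls (ENSMUSG00000015852.13, chromosome 3, 87250758 to 87263738, minus strand), an Fc receptor-like gene, had the largest change against saline of all members at 12 h and 24 h. Its saline libraries had 2.43, 2.32 and 6.64 CPM, and those at 6 h 7.11, 4.13, 6.78 and 6.10 CPM. At 12 h they had 19.1, 13.9, 20.1 and 20.2 CPM and at 24 h 34.3, 25.6, 25.2 and 31.6 CPM. From 6 h on, the 3 times did not overlap. The change was 0.69 ± 0.36 at 6 h (adjusted p = 0.427), 2.30 ± 0.32 at 12 h (adjusted p = 0.000454) and 2.97 ± 0.31 at 24 h (adjusted p = 4.65e-05). Without saline A226 these were 1.34 (adjusted p = 0.00829), 2.95 and 3.62.

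Tmem119 (ENSMUSG00000054675.5, chromosome 5, 113793729 to 113800516, minus strand) encodes a transmembrane protein used to tell microglia from other macrophages. Its saline libraries had 12.7, 12.6 and 17.4 CPM and its 6 h libraries 10.6, 6.96, 13.6 and 9.89 CPM. At 12 h they had 18.4, 19.0, 18.2 and 18.9 CPM and at 24 h 31.7, 32.9, 22.3 and 30.2 CPM. It lay on the low side at 6 h, without passing (-0.48 ± 0.19, adjusted p = 0.247), and was closely grouped above saline at 12 h (0.39 ± 0.18, adjusted p = 0.213). At 24 h it had risen by 1.04 ± 0.18 (adjusted p = 0.00131).

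Siglech (ENSMUSG00000051504.18, chromosome 7, 55768178 to 55778925, plus strand) encodes a sialic acid-binding lectin of microglia. Saline libraries had 4.82, 5.73 and 9.03 CPM, 6 h libraries 5.68, 4.92, 6.78 and 4.87 CPM, and 12 h libraries 6.23, 4.32, 8.26 and 7.27 CPM. At 24 h the values were 16.1, 15.5, 13.4 and 16.5 CPM. The first 3 groups overlapped and the last stood apart. The change was -0.22 ± 0.22 at 6 h (adjusted p = 0.740), 0.02 ± 0.21 at 12 h (adjusted p = 0.971) and 1.24 ± 0.20 at 24 h (adjusted p = 0.000563).

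Olfml3 (ENSMUSG00000027848.12, chromosome 3, 103722222 to 103738001, minus strand) encodes a secreted olfactomedin-like protein. Saline libraries had 10.2, 10.4 and 14.5 CPM and 6 h libraries 12.3, 9.79, 13.7 and 11.1 CPM. The 12 h libraries had 25.5, 20.7, 23.4 and 22.9 CPM and the 24 h libraries 46.9, 39.9, 33.2 and 45.8 CPM. Saline and 6 h could not be told apart (0.01 ± 0.16, adjusted p = 0.992), whereas each later group lay wholly above the one before it. The rise was 0.99 ± 0.15 at 12 h (adjusted p = 0.000267) and 1.83 ± 0.14 at 24 h (adjusted p = 3.95e-07).

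Tgfbr1 (ENSMUSG00000007613.15, chromosome 4, 47353222 to 47414931, plus strand) encodes the type I receptor chain for transforming growth factor beta and is also expressed outside microglia. Saline libraries had 19.2, 20.4 and 21.7 CPM, and 6 h libraries 17.4, 13.9, 18.0 and 17.5 CPM. At 12 h they had 20.5, 20.9, 24.2 and 24.0 CPM and at 24 h 23.5, 24.5, 27.4 and 24.1 CPM. All 6 h libraries lay below saline and all 24 h libraries above it, by small amounts: -0.29 ± 0.09 at 6 h (adjusted p = 0.0473), 0.14 ± 0.08 at 12 h (adjusted p = 0.360) and 0.29 ± 0.08 at 24 h (adjusted p = 0.0230). The 6 h call was lost on leaving out A222, A224, A226, A240, A241 or A243 singly (-0.33 to -0.21, adjusted p up to 0.207). The 24 h call was lost without saline A222 (0.25, adjusted p = 0.113), saline A224 (0.29, adjusted p = 0.0718) or LPS A276 (0.24, adjusted p = 0.0592), and with both tissues in 1 fit (0.28, adjusted p = 0.12).

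The step from 6 h to 12 h and that from 12 h to 24 h each carried calls for 5 members. Olfml3 was called in both, but which others were shared rests on the threshold: P2ry13 just missed it in the first step (adjusted p = 0.0547) and Tmem119 in the second (adjusted p = 0.0592), and with limma-voom both passed, as did Fcrls in the second step (adjusted p = 0.00551). Between 6 h and 12 h, Tmem119 (0.87 ± 0.18), Fcrls (1.61 ± 0.28), Olfml3 (0.98 ± 0.14), Cx3cr1 (0.51 ± 0.10) and Tgfbr1 (0.43 ± 0.08) rose, where 1.14% of all genes rose and 1.0% fell. Between 12 h and 24 h, P2ry12 (1.56 ± 0.25), P2ry13 (0.58 ± 0.15), Olfml3 (0.84 ± 0.13), Siglech (1.22 ± 0.19) and Gpr34 (1.68 ± 0.36) rose, where 0.885% rose and 1.26% fell. Between 6 h and 24 h all 9 rose, where 4.57% rose and 4.92% fell. A difference between the steps was not tested, and the 12 h libraries enter both. In the step from 12 h to 24 h, 3 members rose on leaving out A258, A259, A261, A275 or A278 singly, and 0 with both tissues in 1 fit. In the step from 6 h to 12 h, 2 rose with both tissues in 1 fit. There the call of Tmem119 was lost on leaving out A240, A243, A258, A259 or A261 singly (adjusted p = 0.056 to 0.0681). That of Cx3cr1 was lost without A241 (adjusted p = 0.0527).

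**Figure D3:**
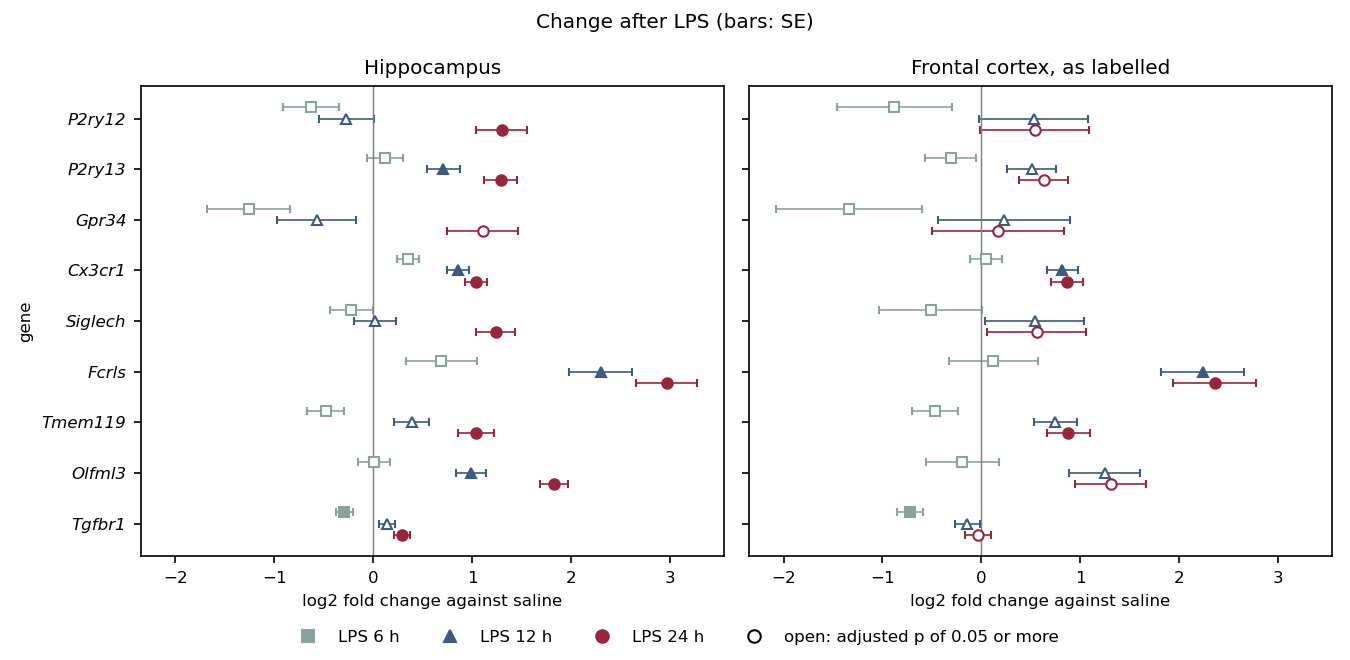
Log2 fold change against saline (horizontal axis, bars ± SE) of the 9 members at LPS 6 h (squares), 12 h (triangles) and 24 h (circles), in the hippocampus (left) and in the frontal cortex with all libraries as labelled (right). Filled symbols have an adjusted p under 0.05. In the hippocampus the 24 h circles are filled for all members but Gpr34, while in the cortex they are filled for Cx3cr1, Fcrls and Tmem119.

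In the cortex, as labelled, fewer members passed. At 6 h Tgfbr1 fell and 0 members rose. At 12 h Fcrls and Cx3cr1 rose, and at 24 h these and Tmem119 did. Without the 4 libraries that went against their labels, 6 members rose at 24 h, by a median of 1.04 over the 9. A gain at 24 h follows from how those libraries were chosen, and only A274 and A275 then remain at that time.

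Of 17111 genes tested in the cortex 2.30% rose and 1.20% fell at 6 h, against 0 and 1 of the 9 members (median -0.47). At 12 h 4.13% rose and 2.99% fell, against 2 and 0 members (median 0.54). At 24 h 3.73% rose and 2.38% fell, against 3 and 0 members (median 0.63). From 6 h to 12 h 0.614% rose and 0.614% fell, against 4 and 0 members. Of these 4, Fcrls and Tgfbr1 each lost the call in 5 of 8 fits with 1 library left out. From 6 h to 24 h 0.789% rose and 1.04% fell, against 5 and 0 members. Of these 5, Olfml3 (adjusted p = 0.0437) lost the call in 6 of 8 such fits, and with no filter on low counts (adjusted p = 0.0698). From 12 h to 24 h 0.00% rose and 0.00% fell by edgeR, and 0 members did, with 0 at an unadjusted p under 0.05. Leaving out the 4 libraries, 1.99% of genes fell at 6 h with 2 members, 2.69% rose at 12 h with 2 members, and 3.29% rose at 24 h with 6 members. In that fit 0.117% rose from 6 h to 12 h with 2 members, 0.0932% rose from 12 h to 24 h with 1 member (Olfml3), and 1.74% rose from 6 h to 24 h with all 9 members.

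Tgfbr1 had 23.8, 17.3 and 23.4 CPM in saline cortices A223, A224 and A226, and 14.2, 11.8, 12.4 and 13.8 CPM at 6 h. All 6 h libraries lay below all saline libraries (-0.72 ± 0.13, adjusted p = 0.00273). It had 17.3, 18.2, 21.2 and 21.6 CPM at 12 h and 23.5, 24.3, 19.5 and 17.2 CPM at 24 h, which overlapped saline.

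P2ry12 in cortex had 16.3, 7.89 and 15.4 CPM after saline and 9.53, 4.46, 7.65 and 7.34 CPM at 6 h. At 12 h A258 and A259 had 9.28 and 8.70 CPM, and the libraries labelled A260 and A261 had 24.0 and 34.8 CPM. At 24 h A274 and A275 had 30.4 and 25.1 CPM, and the libraries labelled A276 and A278 had 12.6 and 9.66 CPM. Both labelled times thus spanned overlapping ranges, and the change against saline at 24 h was 0.54 ± 0.55 (adjusted p = 0.732), or 1.04 ± 0.28 (adjusted p = 0.0574) without the 4 libraries. At 12 h it was 0.53 ± 0.55 as labelled and -0.59 ± 0.30 (adjusted p = 0.462) without them.

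Gpr34 in cortex followed the same libraries, with 2.79 and 2.69 CPM in A258 and A259 against 8.43 and 12.7 CPM in the libraries labelled A260 and A261 at 12 h. At 24 h it had 10.7 and 9.41 CPM in A274 and A275 against 3.45 and 2.01 CPM in the libraries labelled A276 and A278. Saline libraries had 6.54, 3.28 and 6.90 CPM and 6 h libraries 3.95, 1.02, 2.25 and 1.75 CPM. At 6 h the change was -1.34 ± 0.74 (adjusted p = 0.336) and, with the 4 libraries left out of the shared estimate of spread, -1.37 ± 0.34 (adjusted p = 0.0463).

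Siglech in cortex had 5.87 and 4.90 CPM at 12 h in A258 and A259, and 13.8 and 17.2 CPM in the libraries labelled A260 and A261. At 24 h it had 16.2 and 14.1 CPM in A274 and A275, and 6.41 and 5.55 CPM in the libraries labelled A276 and A278. At 6 h it had 2.85 to 6.06 CPM. Against saline (7.39, 5.22 and 8.62 CPM) the 24 h change was 0.56 ± 0.50 (adjusted p = 0.688), and 1.07 ± 0.24 (adjusted p = 0.0181) without the 4.

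Fcrls and Cx3cr1 rose in cortex at both later times whichever way the libraries were taken, with 1 exception. Fcrls had 5.83, 2.67 and 7.08 CPM after saline and 2.74 to 7.84 CPM at 6 h, 15.5 to 39.4 CPM at 12 h and 21.6 to 35.7 CPM at 24 h, without overlap with saline. It rose by 2.24 ± 0.42 at 12 h (adjusted p = 0.00630) and 2.36 ± 0.42 at 24 h (adjusted p = 0.00514), or by 1.72 ± 0.39 and 2.63 ± 0.38 without the 4 libraries. Cx3cr1 had 30.1, 17.3 and 30.9 CPM after saline, 22.1 to 31.3 CPM at 6 h, 41.0 to 53.8 CPM at 12 h and 47.8, 48.9, 47.9 and 48.4 CPM at 24 h, where it rose by 0.87 ± 0.16 (adjusted p = 0.00185). At 12 h it rose by 0.82 ± 0.16 (adjusted p = 0.00288), but without the 4 libraries 0.65 ± 0.20 did not pass (adjusted p = 0.105).

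Olfml3 in cortex was at 12.7, 13.2 and 13.6 CPM after saline and at 9.95 to 13.2 CPM at 6 h. At 12 h it was at 23.4 and 19.2 CPM in A258 and A259 and at 29.8 and 52.6 CPM in the libraries labelled A260 and A261. At 24 h A274 and A275 had 46.5 and 39.2 CPM, and the libraries labelled A276 and A278 20.7 and 24.5 CPM. Every 12 h and 24 h library lay above saline, yet the changes of 1.25 ± 0.36 (adjusted p = 0.0573) and 1.31 ± 0.36 (adjusted p = 0.0520) did not pass. They passed in 5 of 9 other settings at 12 h and in 6 of 9 at 24 h. Among these was DESeq2 with all libraries as labelled (adjusted p = 0.00892 and 0.00527). Without the 4 libraries Olfml3 rose by 0.68 ± 0.13 at 12 h (adjusted p = 0.00565) and 1.69 ± 0.12 at 24 h (adjusted p = 2.61e-06).

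Tmem119 in cortex rose at 24 h from 16.3, 12.6 and 16.1 CPM to 31.5, 34.0, 21 and 24.5 CPM (0.88 ± 0.22, adjusted p = 0.0282; 1.11 ± 0.18, adjusted p = 0.00198 without the 4). As labelled, the call was lost without A223 (0.94, adjusted p = 0.0702), A224 (0.77, adjusted p = 0.117), A226 (0.93, adjusted p = 0.0839), A274 (0.79, adjusted p = 0.0721) or A275 (0.75, adjusted p = 0.0819), and with no filter on low counts (adjusted p = 0.114). At 6 h Tmem119 had 7.30 to 13.9 CPM and at 12 h 20.4 to 34.8 CPM, the latter all above saline, though neither passed. The 12 h change just missed the threshold (0.75 ± 0.22, adjusted p = 0.0545). It passed in 6 of 9 other settings, DESeq2 among them (adjusted p = 0.00675), but not without the 4 libraries (0.47 ± 0.18, adjusted p = 0.235). P2ry13 in cortex had 5.93, 3.89 and 6.52 CPM after saline and 9.42, 10.8, 8.18 and 5.97 CPM at 24 h (0.63 ± 0.25, adjusted p = 0.190; 0.86 ± 0.20, adjusted p = 0.0221 without the 4).

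No member was called as differing in its LPS response between the tissues. Of 36 tests (9 members in 4 interactions) 0 passed by edgeR, 1 had an unadjusted p under 0.05, and the lowest adjusted p was 0.58. Of 17650 genes tested the shares called with a larger change in hippocampus were 0.00% at 6 h, 0.0397% at 12 h, 0.0680% at 24 h and 0.0907% from 6 h to 24 h, and with a smaller one 0.00%, 0.0567%, 0.0567% and 0.0340%. The members' median difference (hippocampus minus cortex) was 0.31 at 6 h, -0.26 at 12 h and 0.62 at 24 h as labelled, and 0.33, 0.44 and 0.19 without the 4 cortical libraries, so that its sign at 12 h turned with them. Shifts in these directions at 12 h and 24 h follow from how those libraries were chosen. After saline 19.9% of genes were higher and 17.2% lower in hippocampus than in cortex, and of the members 0 and 0 (0 at an unadjusted p under 0.05; limma-voom called P2ry13 lower, -0.57, adjusted p = 0.0275). With the mouse as a fixed block in edgeR 1 was called, Cx3cr1, higher in hippocampus by 0.28 (adjusted p = 0.0314). In the main fit its difference was 0.02 ± 0.16 (adjusted p = 0.947). The block fit held only mice with both tissues, so its saline libraries were those of A224 and A226. What the change of libraries did to the value was not tested.

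Mice of a group differed in their level of the whole set. Saline mouse A226 had the highest hippocampal level for 9 of 9 members and the highest cortical level for 6 of 9, and saline mouse A224 had the lowest cortical level for 8 of 9. At 6 h mouse A241 was lowest for 8 of 9 members in the hippocampus and for 8 of 9 in the cortex. The mean deviation of the members from their group lay on the same side in both tissues for 11 of 14 mice, but this count includes mice of the 12 h and 24 h groups, whose cortical means rest on the 4 libraries that went against their labels. Within the hippocampus, correlations of log2 levels among members over 15 libraries averaged 0.77 (Cx3cr1, Tgfbr1) to 0.88 (Olfml3) per gene, a description over libraries that share the differences between times.

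Per kilobase of merged exons, the order of levels changed over time. In saline hippocampus the mean was 6.15 ± 1.19 CPM per kb (SD, n = 3) for Tmem119, 5.79 ± 1.49 for Cx3cr1, 4.52 ± 2.04 for P2ry12 and 3.13 ± 0.186 for Tgfbr1. Neighbours in this order had overlapping SDs, and no order was tested here. Siglech (1.93 ± 0.655), Olfml3 (1.90 ± 0.393), Gpr34 (1.90 ± 1.38), Fcrls (1.63 ± 1.06) and P2ry13 (1.62 ± 0.516) followed and could not be ordered. At 24 h after LPS Tmem119 (12.6 ± 2.07, n = 4), Fcrls (12.5 ± 1.93), Cx3cr1 (11.9 ± 0.365) and P2ry12 (11.1 ± 0.743) lay within reach of each other, above Olfml3 (6.73 ± 1.02). Siglech (4.54 ± 0.404), Gpr34 (4.05 ± 0.659), P2ry13 (3.94 ± 0.498) and Tgfbr1 (3.81 ± 0.262) came last, and neighbours among them had overlapping SDs. Fcrls had thus moved from the lowest to the highest group.

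The wider set of homeostatic genes did not move as one. Of 18 other such genes in the hippocampus 3 rose and 3 fell at 6 h (median -0.10), and 9 rose and 3 fell at 24 h (median 0.48). The shares of all genes tested were 2.96% rising and 2.15% falling at 6 h, and 6.76% and 6.60% at 24 h. Adora3, an adenosine receptor gene, rose by 2.22 ± 0.44 at 24 h (adjusted p = 0.00108) and Lpcat2 by 1.47 ± 0.15 (adjusted p = 1.67e-07). Mertk, a receptor for dying cells, fell throughout, by 0.67 at 6 h and 0.88 ± 0.08 at 24 h (adjusted p = 1.56e-07), and in cortex by 0.89 at 24 h. Sall1, a transcription factor gene of microglia, rose by 0.48 ± 0.08 at 24 h (adjusted p = 0.000135), and at 6 h did not pass (-0.10 ± 0.08, adjusted p = 0.656).

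Of 19 genes of transforming growth factor beta signalling in the hippocampus, 2 rose and 0 fell at 6 h, where 2.96% of all genes rose, and 4 rose and 2 fell at 24 h, where 6.76% rose and 6.60% fell (median 0.05). The ligand gene Tgfb1 rose by 0.57 ± 0.13 at 6 h (adjusted p = 0.00646) and 0.67 ± 0.13 at 24 h (adjusted p = 0.000564). Tgfbr2, the partner chain of Tgfbr1, rose by 0.45 ± 0.08 at 6 h (adjusted p = 0.00129), when Tgfbr1 fell, and by 0.30 ± 0.09 at 24 h (adjusted p = 0.0190). Acvrl1, another type I receptor gene of the family, rose by 0.53 ± 0.11, and Itgav, an integrin chain that helps release the ligand, fell by 0.33 at 24 h. In cortex Tgfbr2 rose by 0.46 ± 0.11 at 6 h (adjusted p = 0.0236).

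Of 10 genes for microglial transcription factors and growth factors, 4 rose and 1 fell in the hippocampus at 24 h (median 0.11). Among all genes tested 6.76% rose and 6.60% fell. Spi1 rose by 0.84 ± 0.13 already at 6 h (adjusted p = 0.000159) and by 1.09 ± 0.13 at 24 h (adjusted p = 2.20e-06). Irf8 rose by 0.81 ± 0.14 at 6 h (adjusted p = 0.000713) and was called higher at 24 h as well (adjusted p = 2.32e-05). Runx1 rose by 0.96 ± 0.27 at 24 h (adjusted p = 0.0178).

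Of 13 tested genes for ligands, enzymes and partners of the members, 5 rose and 2 fell in the hippocampus at 24 h. Among all genes tested 6.76% rose and 6.60% fell. The fractalkine gene Cx3cl1, mostly neuronal, fell by 0.23 ± 0.05 (adjusted p = 0.00336). Pla1a, whose enzyme makes lysophosphatidylserine, the ligand of GPR34, fell by 0.89 ± 0.28 (adjusted p = 0.0356). Tyrobp, the adaptor through which Siglec-H signals, rose by 0.73 ± 0.10 (adjusted p = 1.17e-05). P2ry6, the UDP receptor gene linked to phagocytosis, rose by 0.61 ± 0.13 at 6 h (adjusted p = 0.00393) and 0.51 ± 0.13 at 24 h (adjusted p = 0.00849).

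General microglial genes moved with the members at 24 h. Of 18, 3 of which are also among the other homeostatic genes, 4 rose and 0 fell in the hippocampus at 6 h (median 0.23), and 16 rose and 0 fell at 24 h (median 0.91). The shares of all genes tested were 2.96% rising and 2.15% falling at 6 h, and 6.76% and 6.60% at 24 h. Itgam rose by 2.66 ± 0.21 (adjusted p = 8.87e-09), Ptprc by 2.11 ± 0.20 (adjusted p = 7.11e-08) and Aif1, the gene of the marker IBA1, by 1.87 ± 0.24 (adjusted p = 1.68e-05). Csf1r, whose signal microglia need to survive, rose by 0.56 ± 0.06 (adjusted p = 1.36e-06) and Trem2, a lipid receptor gene, by 0.69 ± 0.19 (adjusted p = 0.0166). The members' mean log2 level minus that of these 18 genes was -0.36 ± 0.21 (SD, n = 3) after saline, -0.69 ± 0.21 at 6 h, -0.32 ± 0.10 at 12 h and 0.00 ± 0.09 at 24 h (n = 4 each). In cortex it was -0.32 ± 0.29, -0.93 ± 0.14, -0.39 ± 0.16 and -0.32 ± 0.21 as labelled. Without the 4 libraries that went against their labels it was -0.46 and -0.57 in the remaining 12 h libraries, and -0.15 and -0.18 in the remaining 24 h libraries. These differences are descriptions, since the members had been proposed with results known.

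**Figure D4:**
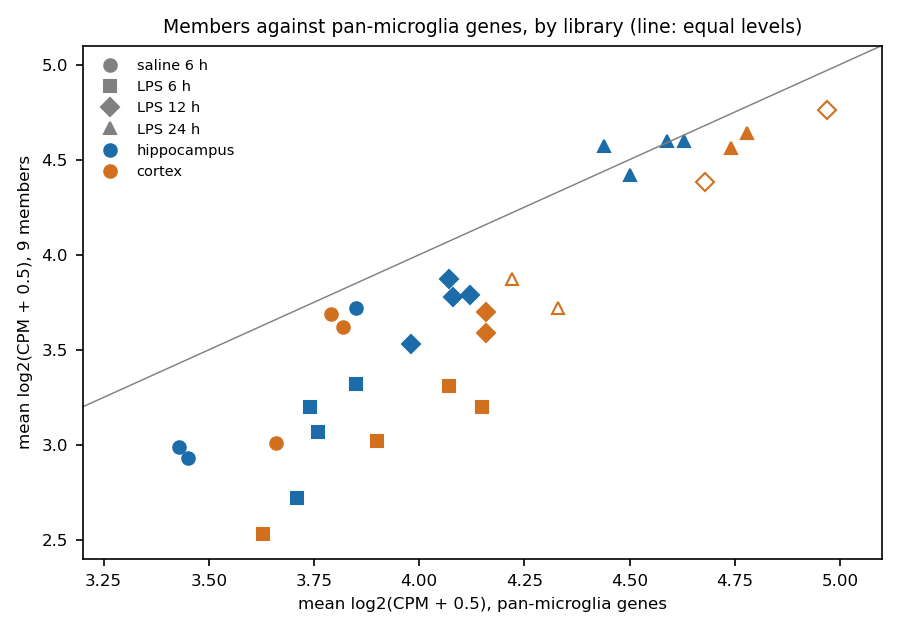
Mean log2(CPM + 0.5) of the 9 members (vertical axis) against that of 18 general microglial genes (horizontal axis) for each library, by treatment and time (symbols) and tissue (blue, hippocampus; orange, cortex), with the line of equal levels. Open symbols are the 4 cortical libraries that went against their labels. The LPS 6 h libraries lie 0.53 to 1.10 below the line, overlapping single cortical libraries of other groups, and the LPS 24 h hippocampi lie about on it.

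Genes of other states and cells also moved, and their part in the members' rise was not tested. The shares of all genes tested in the hippocampus were 2.96% rising and 2.15% falling at 6 h, and 6.76% and 6.60% at 24 h. Of 12 tested proliferation genes 0 rose in the hippocampus at 6 h (1 at an unadjusted p under 0.05) and 7 rose at 24 h, led by Top2a (2.96 ± 0.51, adjusted p = 0.000460) and Mcm3 (1.71 ± 0.18, adjusted p = 2.90e-07), with Mki67 at 1.60 ± 0.32 (adjusted p = 0.00132). The summed level of the 16 listed was 66.0 to 73.7 CPM after saline, 69.3 to 73.5 at 6 h, 72.6 to 82.3 at 12 h and 93.4 to 107 at 24 h. Of 14 tested genes of activated microglia 6 rose at 6 h and 8 at 24 h, while 2 fell at 24 h. Il1b rose by 5.68 ± 0.57 at 6 h (adjusted p = 5.50e-06) and by 2.65 ± 0.79 at 24 h (adjusted p = 0.0337), Gpr84 by 3.04 ± 0.33 and 1.32 ± 0.37, and Tnf, called at 6 h, by 3.86 ± 0.58. Those that fell were Spp1, by 1.26 ± 0.25, and Apoe, mainly an astrocyte gene in resting brain, by 0.14 ± 0.05 (adjusted p = 0.0372). All 14 interferon-response genes rose by 24 h, with Cxcl10 at 5.07 ± 0.65.

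In the hippocampus, monocyte and neutrophil genes had their highest summed levels at 6 h, and the members theirs at 24 h. Of 8 tested in the hippocampus 7 rose at 6 h and 7 at 24 h, where 2.96% and 6.76% of all genes rose. Among them were S100a9 (5.18 ± 0.61 at 24 h, adjusted p = 1.49e-05) and S100a8 (4.59 ± 0.58), whose saline libraries held at most 3 counts. Genes so low after saline could pass the filter on low counts only through the LPS groups where they were high. The count of rises is therefore not a result about the list. Retnlg had no counts after saline and was called higher at 24 h. The summed level of the 12 listed was 1.77 to 2.49 CPM after saline, 24.1 to 28.4 at 6 h, 14.7 to 24.1 at 12 h and 9.01 to 16.1 at 24 h. Ly6g, the defining neutrophil marker, averaged 0.00 CPM at 6 h and 0.0544 CPM at 24 h, and Ccr2, that of monocytes, 0.151 and 0.117 CPM. In cortex the sums were 2.25 to 4.78 after saline, 38.8 to 58.0 at 6 h, 22.7 to 30.7 at 12 h and 18.8 to 30.7 CPM at 24 h. The summed level of the members in cortex, as labelled, was 139 to 277 CPM at 12 h and 159 to 252 CPM at 24 h.

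Of 6 tested genes of border macrophages, which line the vessels and meninges, 1 rose and 1 fell in the hippocampus at 24 h. Among all genes tested 6.76% rose and 6.60% fell, and single calls in the short lists of this paragraph are not read as results about those lists. Mrc1 rose by 1.38 ± 0.25 (adjusted p = 0.000424) and Cd163 fell by 0.80 ± 0.25 (adjusted p = 0.0312). The summed level of the 12 listed was 20.2 to 30.2 CPM after saline, 17.5 to 19.7 at 6 h, 14.3 to 21.5 at 12 h and 20.7 to 23.8 CPM at 24 h. Of 6 oligodendrocyte genes 4 rose and 1 fell at 24 h (median 0.27). Of 8 neuronal genes 0 rose and 1 fell, of 6 astrocyte genes 1 rose and 2 fell, and of 6 endothelial genes 2 rose and 0 fell. Choroid plexus genes were called in 0 of 8 cases at 24 h (5 at an unadjusted p under 0.05, median -2.85).

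The genes most like the members were found by Pearson r of log2 level with the members' mean standardised level over 15 libraries in each tissue, ranked by the lower of both r among 13628 genes. Among the closest were Laptm5 (0.95 in hippocampus, 0.96 in cortex), Csf1r (0.95, 0.97), Pld4 (0.95, 0.94), Ctss (0.96, 0.94), Il33 (0.93, 0.93), Dock2 (0.94, 0.93) and Cd84 (0.92, 0.92). The libraries share the differences between times and mice, and the values are descriptions. At 24 h in the hippocampus these genes rose by 0.56 ± 0.06 (Csf1r) to 1.45 ± 0.15 (Dock2).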

How the data were processed

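Whole-number counts of reads in each gene, as deposited by the authors, were used for 30 libraries of stranded poly(A) RNA with paired reads of 150 bp (per the labels). Trim Galore 0.4.1, FastQC, STAR 2.6.0a, DESeq2 and the build GRCm38 (mm10) are named in the submitters' processing notes; which program counted reads, with which strand setting and which annotation, is not given in the sources used here. Of 48820 gene identifiers 98.4% had a symbol in GENCODE M21, whose GRCm38 coordinates, counted from 1, are printed. Entries without a symbol held at most 0.29% of a library.

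Groups follow tissue, treatment and time in the labels, and the replicates are separate mice. For every tissue a single edgeR 4.0.16 model (R 4.3.3) covered its 15 libraries (filterByExpr with minimum count 10 and total 15, TMM scaling, robust glmQLFit, glmQLFTest), and all 30 for differences between tissues. Genes tested were 17289 (hippocampus), 17111 (cortex) and 17650 (both). P-values are two-sided, adjusted by Benjamini-Hochberg across every gene tested in that comparison, and called under 0.05. CPM use TMM factors, and log2 levels add 0.5 CPM. Depth ran from 16826882 to 33034295 counts, and its part in the precision for single members was not tested. No libraries of a group were near-copies (chi-square of 2.14 to 23.1 for each gene in 42 pairs), so none was merged. The fitting code was tested on simulated data.

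Mouse codes pair the tissues of 14 of 16 mice. Deviations from group means correlated between them at r = 0.11 in the median pair, ranged from -0.05 to 0.29, and exceeded 0.1 for 7 mice. The mouse entered as a block in alternatives only, and the fixed block used only the 14 mice with both tissues. Other alternatives were library totals alone, DESeq2-style size factors, no filter, a stricter filter (1 CPM in 4 libraries), DESeq2 1.42.0, limma-voom (limma 3.58.1), both tissues in 1 fit, a fit of nothing but the groups compared, and each library left out. Added after seeing the data were fits without 4 cortical libraries, and without hippocampal A222 (saline) and A261 (LPS 12 h).

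Named genes were all 9 members; of each other list up to 3 called genes with the largest change per tissue; Csf1r, Sall1, Aif1, Cx3cl1, Tgfb1, Tgfbr2, Mertk, Trem2, Apoe, Mki67 and Mrc1; and the 8 genes most like the members. Not every such gene is printed, and some are not reported here. Spp1, Ly6g, Ccr2, Med12l and Cask fall outside this rule and were named after their values were seen. Gorasp1, Csrnp1 and Xirp1 were named for their position alone. The members and lists were chosen with earlier results of these data known. RefSeq promoter windows were searched for exact letters on both strands.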

Additional observations from a re-analysis of the deposited data

Results flagged for a closer look

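A single library stood far from the other 3 of its group in 2 of 54 groups of 4 (9 members in 6 LPS groups), where its gap to the nearest library was above Dixon's critical share of the whole range for groups of 4. Chance alone gives about 1 in 20 such groups. P2ry13 in the hippocampus at LPS 24 h was 8.09 CPM in A274 against 10.5, 10.6 and 10.7 CPM in the others. Tgfbr1 in the hippocampus at LPS 6 h was 13.9 CPM in A241 against 17.4, 17.5 and 18.0 CPM. A241 was also the lowest of its group for most other members in both tissues.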

How the results depend on the processing

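No called direction reversed under any alternative run. For single members, 1279 values under settings other than leaving out 1 library kept their side of the threshold, 70 newly passed and 28 no longer did. With 1 library left out, 1323 kept it, 12 newly passed and 51 no longer did. Counts of members that moved by more than 1.5 times, or to or from 0, were as follows, and smaller moves are not listed except that both tissues in 1 fit gave 6 rises in the hippocampus at 24 h in place of 8. In the hippocampus, with 1 lower at 6 h against saline, 0 were lower with library totals alone, with the stricter filter, with both tissues in 1 fit and without A222 and A261, 2 with limma-voom and 4 without a filter, and higher calls there, 0, became 2 without a filter, 1 with DESeq2 and 2 with limma-voom. Without a filter 2 were lower at 12 h and 8 rose from 6 h to 12 h. These calls without a filter came with smaller SEs at nearly the same fold changes. At 6 h against saline P2ry12 was at -0.64 ± 0.10 without a filter and at -0.63 ± 0.28 with it. Gpr34 was at -1.26 ± 0.18 without a filter and at -1.26 ± 0.42 with it. Both tissues in 1 fit gave 2 rises from 6 h to 12 h and 0 from 12 h to 24 h, and leaving out A222 and A261 gave 3 of the latter. In cortex 4 rose at 12 h with library totals alone, DESeq2, limma-voom and both tissues in 1 fit. Without the 4 cortical libraries 2 fell at 6 h, 6 rose at 24 h, and 2, 1 and 9 rose from 6 h to 12 h, 12 h to 24 h and 6 h to 24 h. Limma-voom called 1 lower in saline hippocampus than cortex. With the mouse as a replicate block, fixed in edgeR, 1 was higher there, and it changed no other call. Leaving out 1 library gave 0 to 1 lower and 0 to 2 higher in the hippocampus at 6 h (2 without A226), 3 to 5 rises from 12 h to 24 h, and in cortex 2 to 6 rises from 6 h to 12 h (2 without A241, A243, A260 or A261). The causes were not tested. The fewest counts of a member in a library, 19, were those of Gpr34, whose levels also differed between saline mice.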
